A study of Mus musculus with 4 samples.

Results

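The 9 genes described here, IDO1, IL4I1, KYNU, KMO, SLC7A5, SLC7A8, SLC16A10, AHR and ARG2, encode enzymes, transporters and a receptor of tryptophan and amino acid metabolism. They were taken by symbol from the 36601 genes of the count tables, in which each symbol stood once. The cells were live human CD45+ cells sorted from tumors that MDA-MB-231, an established human breast carcinoma line, had formed in the mammary fat pad of humanized MISTRG mice. MISTRG mice carry human genes for M-CSF, GM-CSF and IL-3, and all of them had been irradiated as pups and given human fetal liver CD34+ cells. Of 14 mice, 7 were untreated (named U1 to U7 here) and 7 had received maraviroc in the drinking water until the tumors were taken (M1 to M7). Cells were marked per mouse with hashtag antibodies and run in 2 droplet reactions, the first with U1 to U4 and M1 to M3 and the second with U5 to U7 and M4 to M7. The sample labels name neither mouse nor treatment, so both were read from the names of the hashtags. The labels also give the mouse as organism, whereas the genes counted are human. The tumor was of 1 cell line, and the number of CD34+ donors is not given in the sources used here. No mouse genes were counted, so the counts cannot show whether mouse cells were among those sorted.

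Tryptophan is broken down along more than one route. IDO1 opens the kynurenine route, in which KMO and KYNU, the kynurenine 3-monooxygenase and the kynureninase, act further down, while IL4I1 is a secreted oxidase that turns tryptophan and other aromatic amino acids into keto acids, among them an indole pyruvate. SLC7A5 and SLC7A8 are the light chains of exchangers of large neutral amino acids that pair with SLC3A2, SLC16A10 is a carrier of aromatic amino acids, and AHR is a transcription factor that binds kynurenine and indole products among its ligands. ARG2 is the mitochondrial arginase, which removes arginine. In tumors the enzymes are known for draining amino acids that T cells need and for making ligands of AHR.

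The 2 reactions differed in depth. The first held 29120 barcodes with a median of 2764 UMIs (unique transcript molecules counted), and the second 13582 barcodes with a median of 10204.5 UMIs, with 136 barcode sequences in common. Barcodes with over 600 and up to 6000 genes and a mitochondrial share under the limit of the study's methods numbered 27645 and 10161, of which 11917 and 7900 carried a single hashtag. In the first reaction 10174 barcodes carried more than one hashtag and 5554 none, against 2142 and 119 in the second. Of the single-hashtag cells, 6726 and 7253 (13979 in all) fell into 19 classes by UMIs of marker genes, none of them one of the 9 genes, and 5838 fell into no class. Markers that the gates had not used stood highest in the class they belong to, such as BIRC3 in mature dendritic cells, CPVL in cDC1s, CLEC10A in cDC2s, MZB1 in pDCs, CD79B in B cells, GNLY in NK cells and F13A1 in LYVE1+ macrophages. The cDC2 gate set no limit on monocyte markers. These summed to 4119 CPM in cDC2s, 239 CPM in cDC1s, 232 CPM in mature dendritic cells and 14116 CPM in monocytes. The gated cDC2 markers summed to 545 CPM in cDC2s and 27.2 CPM in monocytes. The part of monocyte-like cells in the cDC2 levels, and in contrasts with cDC2s, was not tested.

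Levels are given as CPM, the UMIs of a gene per 1000000 UMIs of the class, as mean ± SD over the mice with enough cells of that class (10 cells, or 3 for the rare classes). CPM of different genes were not compared with each other. A difference between classes is a log2 fold change within mice from edgeR, a count model fitted over all genes, with its standard error (SE) and its adjusted p. Of 18 pairs of neighbours in the order of the 19 classes, 17 or 18 overlapped within their SD for each gene. The pairs apart were IDO1 below cDC1s, SLC7A5 below pDCs, SLC16A10 below monocytes and AHR below NK cells.

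**Figure D1:**
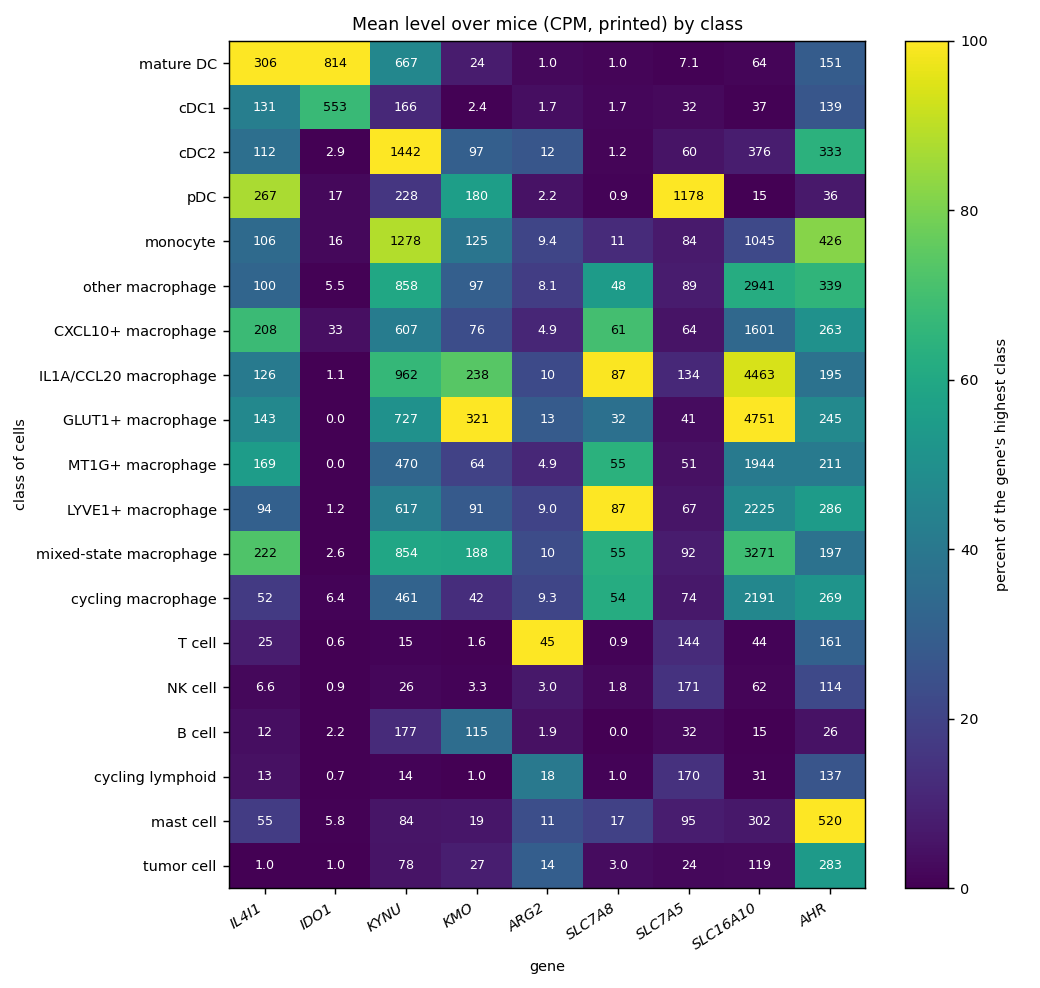
Heat map of the mean CPM over mice of the 9 genes (columns) in the 19 cell classes (rows), each cell printed with its CPM and colored by its percent of the gene's highest class. The brightest fields of IDO1 lie in mature DCs (814 CPM) and cDC1s (553 CPM), of SLC7A5 in pDCs (1178 CPM), of SLC16A10 in GLUT1+ and IL1A/CCL20 macrophages (4751 and 4463 CPM) and of ARG2 in T cells (45.0 CPM).

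IDO1, the entry enzyme of the kynurenine route, was highest in mature DCs (gated on LAMP3, CCR7, FSCN1, CCL19 and CCL22) and in cDC1s (gated on CLEC9A, XCR1 and related genes). In mature DCs it ran from 107 CPM in U6 to 1332 CPM in U1, with a median of 858 and a mean of 814 ± 343 CPM (n = 10 mice). In cDC1s it ran from 91.9 CPM in U7 to 1256 CPM in U1, with a median of 505 and a mean of 553 ± 366 CPM (n = 11). The values of the 2 classes overlapped almost fully. In cDC2s it was 2.92 ± 4.21 CPM (n = 14), between 0 and 14.003 CPM, so that neither mature DCs nor cDC1s overlapped with it. IDO1 was higher than in cDC2s in 10 of 10 mice in mature DCs (fitted log2 fold change 7.85, SE 0.39) and in 11 of 11 mice in cDC1s (6.73, SE 0.41). Mature DCs and cDC1s of the same mice did not differ past the threshold, with a higher value in mature DCs in 6 of 9 mice (0.49, SE 0.28, adjusted p = 0.142).

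At the level of cells, IDO1 was detected in 56 of 89 mature DCs (62.9%, 95% exact binomial interval 52.0 to 72.9%) and in 54 of 62 cDC1s (87.1%, interval 76.2 to 94.3%). T cells, which should lack the enzyme, had a UMI in 9 of 2672 cells (0.337%), at a median depth of 5936.5 UMIs against 13279 in mature DCs and 13181 in cDC1s. With each cell of at least 2000 UMIs thinned to that number, the expected shares were 45.9% in mature DCs, 54.6% in cDC1s and 0.135% in T cells. Shallower cells were left out of these shares (2 mature DCs, 0 cDC1s and 187 T cells). A mature DC with IDO1 held a median of 7.5 UMIs of it and a cDC1 5.5 UMIs. In mature DCs 46 of 89 cells held both IDO1 and IL4I1 and 9 held neither, whereas in cDC1s 16 of 62 held both.

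Outside these DCs, IDO1 was low. Its next highest level was 32.5 ± 39.8 CPM in CXCL10+ macrophages (gated on CXCL9, CXCL10, CXCL11 and IFIT genes), with 0 CPM in U2 and U7 and 129 CPM in M6. There 30 of 502 cells had a UMI (5.98%), and 86 of the 149 UMIs lay in 4 cells. IDO1 was higher in CXCL10+ than in the remaining macrophages, called other macrophages here, which belong to no state by the gates (2.40, SE 0.50, adjusted p = 0.00118, higher in 9 of 14 mice), a call that was lost with the first reaction alone (1.76, adjusted p = 0.0664). The gates ask for 4 UMIs of a state's markers, or 2 for LYVE1+, so shallow cells can fall among other macrophages for want of UMIs. Median depth was 2922 UMIs in other macrophages against 6783.5 to 11033.5 UMIs in the classes of 1 state. Of the 1278 other macrophages, 953 came from the first reaction. The part of depth in the lack of a state was not tested. Monocytes held 16.3 ± 17.9 CPM and exceeded other macrophages (5.48 ± 8.43 CPM) in 11 of 14 mice (1.41, SE 0.42, adjusted p = 0.00791), which was also lost with the first reaction alone (0.79, adjusted p = 0.289). As in CXCL10+ macrophages, the UMIs were uneven, with 373 of 625 in 13 of the 131 positive monocytes. At a few CPM in other macrophages, IDO1 can enter both tests through the other class alone, so neither call gives support of its own. No IDO1 UMI was found in 195 GLUT1+ and 102 MT1G+ macrophages, which allows shares of cells with a UMI, not of cells that express the gene, of up to 1.54% and 2.94%.

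**Figure D2:**
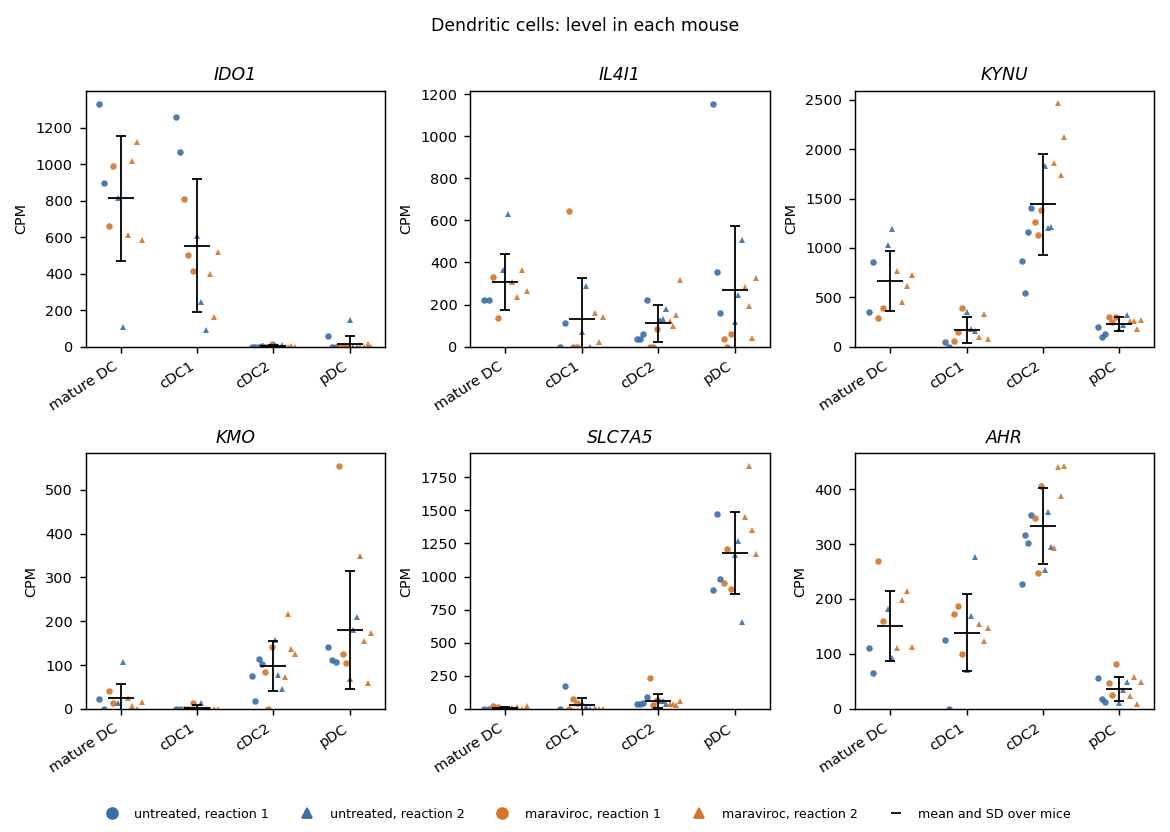
CPM of IDO1, IL4I1, KYNU, KMO, SLC7A5 and AHR in mature DCs, cDC1s, cDC2s and pDCs, each point 1 mouse, colored by treatment and shaped by reaction, with mean and SD as bars. IDO1 of mature DCs (107 to 1332 CPM) and cDC1s (91.9 to 1256 CPM) lies above all cDC2 points (at most 14.003 CPM), and SLC7A5 of pDCs (653 to 1839 CPM) above all other DC points.

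IL4I1, the secreted amino acid oxidase, was highest in mature DCs, from 134 to 628 CPM with a median of 284 (306 ± 134 CPM, n = 10). It followed in pDCs (267 ± 305 CPM, n = 13), which ranged from 0 CPM to 1153 CPM in U1, in macrophages of more than 1 state (222 ± 74.0 CPM, n = 13) and in CXCL10+ macrophages (208 ± 83.3 CPM, n = 14). Mature DCs exceeded cDC2s in 9 of 10 mice (1.61, SE 0.30, edgeR adjusted p = 0.000114) and cDC1s in 8 of 9 mice (1.47, SE 0.43, adjusted p = 0.00758), the latter not with the first reaction alone (1.44, adjusted p = 0.227). Between cDC1s and cDC2s there was no call (-0.04, SE 0.58, adjusted p = 0.967).

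Among macrophages of 1 state, mean IL4I1 was highest in CXCL10+ cells, and the paper's own label for its CXCL10+ macrophages also names IL4I1. It was 208 ± 83.3 CPM there and 99.7 ± 39.1 CPM in other macrophages, and higher in 14 of 14 mice (1.11, SE 0.12, adjusted p = 7.03e-08). GLUT1+ macrophages, gated on SLC2A1 and other hypoxia genes, also had more IL4I1 (143 ± 52.0 CPM, 9 of 11 mice, 0.80, SE 0.18, adjusted p = 0.00309), though not with the second reaction alone (0.82, adjusted p = 0.0973). MT1G+ macrophages held 169 ± 131 CPM, overlapping with CXCL10+ ones, and were not called against other macrophages (0.59, SE 0.26, edgeR adjusted p = 0.310). Cycling macrophages had less than non-cycling ones in 13 of 14 mice (51.6 ± 32.9 against 131 ± 32.2 CPM, -1.58, SE 0.13, adjusted p = 1.19e-10). In lymphocytes the gene was low but uneven, with 25.1 ± 8.79 CPM in T cells and 6.71 ± 5.45 CPM in NK cells of the same 13 mice (1.95, SE 0.29, adjusted p = 3.81e-06, higher in T cells of 13 of 13). At this level in NK cells, IL4I1 can enter the test through T cells alone, so the call gives no support of its own. Tumor cells (gated on keratins and other carcinoma genes) held 1 IL4I1 UMI in 86 cells.

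KYNU, the kynureninase, was found in all myeloid classes. It was highest in cDC2s, from 544 to 2466 CPM with a median of 1324 (1442 ± 511 CPM, n = 14), and in monocytes, from 731 to 1926 CPM with a median of 1220 (1278 ± 318 CPM, n = 14). These neighbours overlapped almost fully, and IL1A/CCL20 macrophages (962 ± 408 CPM) and other macrophages (858 ± 315 CPM) came next. As said above, cDC2s also held monocyte markers, and the part of monocyte-like cells in their KYNU level was not tested. Monocytes exceeded other macrophages in 13 of 14 mice (0.67, SE 0.09, edgeR adjusted p = 7.04e-07). The KYNU level was below that of other macrophages in CXCL10+ (607 ± 258 CPM, -0.49, SE 0.10, adjusted p = 0.00143), LYVE1+ (617 ± 254 CPM, -0.48, SE 0.07, adjusted p = 5.10e-05) and MT1G+ macrophages (470 ± 278 CPM, -0.86, SE 0.18, adjusted p = 0.00438). The CXCL10+ and MT1G+ differences were not called with the second reaction alone (-0.30, adjusted p = 0.223, and -0.75, adjusted p = 0.188), and the MT1G+ one not in cells of at least 5000 UMIs (-0.75, adjusted p = 0.0951).

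The 3 classes of conventional DCs were graded in KYNU. In the mice with both classes, cDC1s were lower than cDC2s in 11 of 11 (166 ± 133 against 1434 ± 392 CPM, -3.13, SE 0.30, adjusted p = 1.24e-07). Mature DCs lay between the other two, with 667 ± 303 CPM, lower than cDC2s in 10 of 10 mice (-1.14, SE 0.21, adjusted p = 8.17e-05) and higher than cDC1s in 9 of 9 (2.22, SE 0.38, adjusted p = 7.03e-05). A KYNU UMI was found in 74 of 89 mature DCs (83.1%, thinned 55.4%) and in 162 of 2672 T cells (6.06%, thinned 2.31%).

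KMO, the kynurenine 3-monooxygenase, was highest by mean CPM in 2 macrophage states. By share of cells with a UMI it was highest in pDCs (62.7%, thinned 24.0%). In GLUT1+ macrophages it ran from 36.6 to 1041 CPM with a median of 279 (321 ± 285 CPM, n = 11) and in IL1A/CCL20 macrophages from 94.7 to 588 CPM with a median of 192 (239 ± 152 CPM, n = 11). Other macrophages of the same mice had 77.1 ± 46.2 and 81.6 ± 47.3 CPM. The gene was higher in 11 of 11 mice in both states (2.12, SE 0.27, edgeR adjusted p = 3.90e-06, and 1.67, SE 0.22, adjusted p = 1.02e-05). In GLUT1+ macrophages 69 of 195 cells had a KMO UMI. Macrophages of more than 1 state (188 ± 91.9 CPM, n = 13) and pDCs (180 ± 135 CPM, n = 13) came next by mean CPM. Each of these classes overlapped with the next within the SD. Monocytes exceeded other macrophages (125 ± 38.8 against 97.3 ± 60.7 CPM, 0.55, SE 0.16, adjusted p = 0.00733, 11 of 14 mice), though not in the first reaction alone (0.14, adjusted p = 0.595). Cycling macrophages were lower than non-cycling ones in 14 of 14 mice (41.7 ± 17.7 against 118 ± 40.2 CPM, -1.49, SE 0.11, adjusted p = 1.71e-11).

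KMO separated the DC classes in another way than IDO1. It was 97.3 ± 56.9 CPM in cDC2s, 24.1 ± 31.7 CPM in mature DCs and 2.40 ± 5.37 CPM in cDC1s. Against cDC2s of the same mice it was lower in mature DCs (-2.35, SE 0.47, adjusted p = 0.000229, 9 of 10 mice) and in cDC1s (-4.67, SE 0.59, 10 of 11 mice). In pDCs (gated on LILRA4, CLEC4C and related genes) it was 180 ± 135 CPM, from 58.7 to 556 CPM, and detected in 89 of 142 cells (62.7%), 85 of which also held SLC7A5. The pDC level did not differ past the threshold from that of all myeloid cells (0.39, SE 0.22, adjusted p = 0.134).

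B cells held KYNU and KMO, in contrast to T cells. In the 6 mice with enough B cells, KYNU was 162 CPM in U1, 77.7 in M3, 294 in U5, 171 in M4, 105 in M5 and 254 in M7, against 12.45 ± 5.66 CPM in their T cells. KMO was 81.2, 77.7, 160, 144, 105 and 121 CPM in the same order, against 2.10 ± 1.29 CPM. In all 6 mice both genes were higher in B cells, with no overlap (KYNU 3.87, SE 0.32, edgeR adjusted p = 5.48e-18, and KMO 5.86, SE 0.45). Of 129 B cells 71 had a KYNU UMI (55.0%, interval 46.0 to 63.8%), 62 a KMO UMI (48.1%, 39.2 to 57.0%) and 43 both, at a median of 5574 UMIs, whereas 25 of 2672 T cells had a KMO UMI (0.936%). The summed level of 7 macrophage markers was 113 CPM in B cells, 319 CPM in T cells and 5647 CPM in other macrophages. That of myeloid lineage markers was 115 CPM in B cells and 102 CPM in T cells. The gates of B and T cells put an upper limit on these lineage markers, so their low level was fixed in advance and tells nothing about myeloid transcripts. The part of such transcripts in the B cell levels was not tested.

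**Figure D3:**
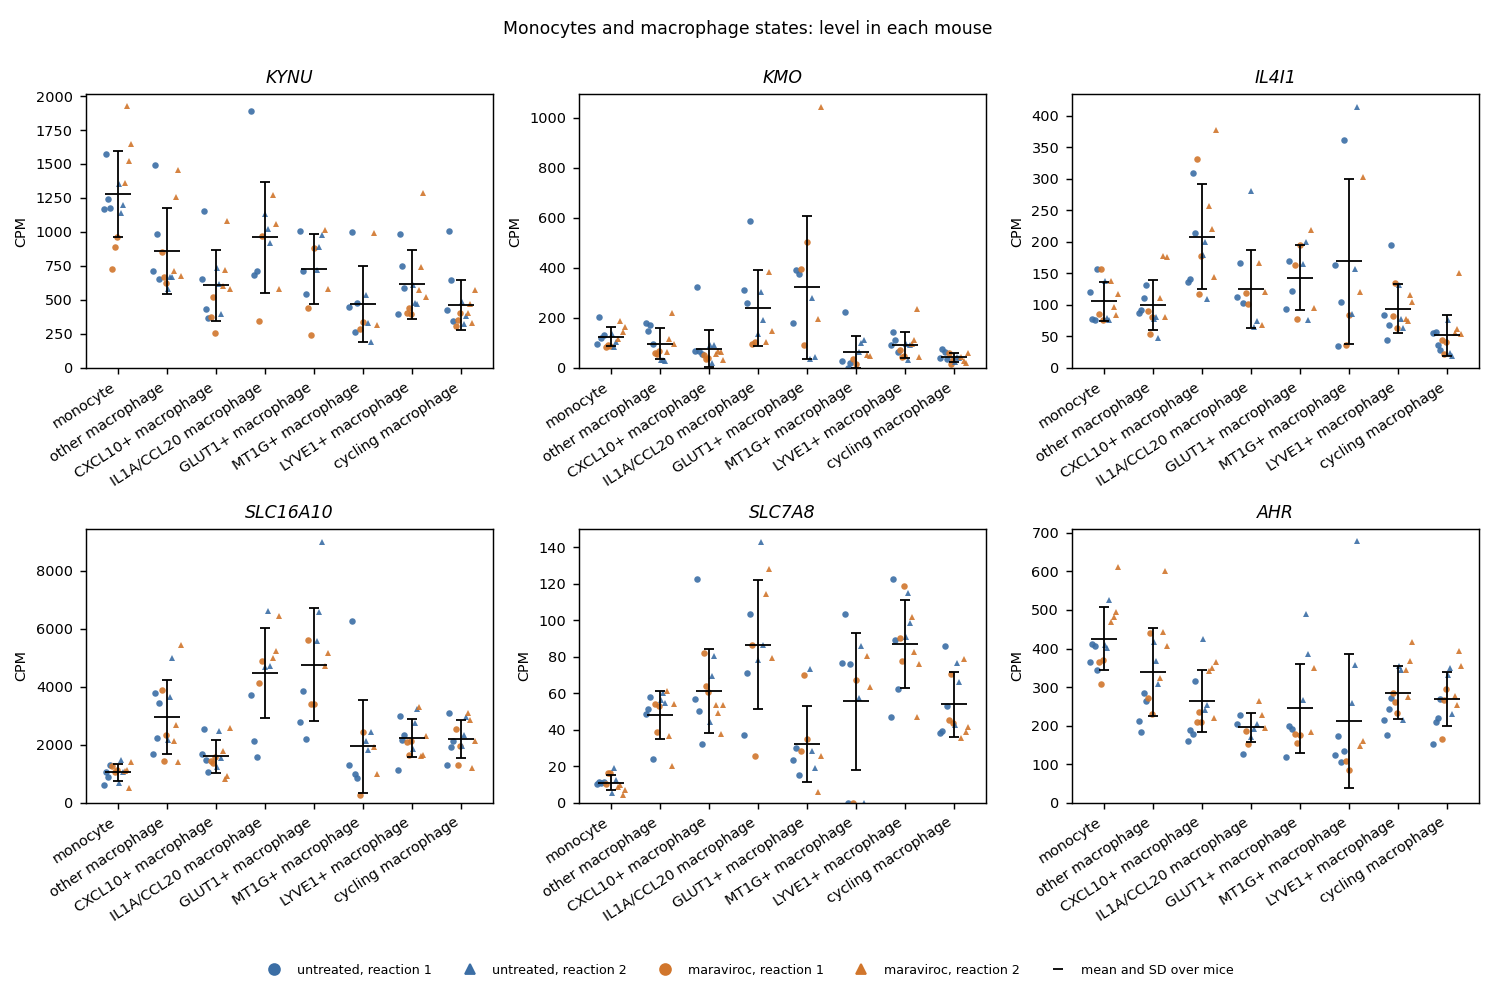
CPM of KYNU, KMO, IL4I1, SLC16A10, SLC7A8 and AHR in monocytes and 7 classes of macrophages, each point 1 mouse, colored by treatment and shaped by reaction, with mean and SD as bars. Among these classes KMO is highest in GLUT1+ (321 CPM) and IL1A/CCL20 macrophages (239 CPM) and IL4I1 in CXCL10+ macrophages (208 CPM). The SLC7A8 points of monocytes (3.93 to 18.9 CPM) lie below all those of other macrophages (20.02 to 61.2 CPM).

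SLC7A5, the light chain of an exchanger for large neutral amino acids, marked pDCs. Its level there ran from 653 CPM in U7 to 1839 CPM in M5, with a median of 1173 (1178 ± 311 CPM, n = 13). The next class, NK cells, reached at most 257 CPM (171 ± 42.9 CPM, n = 14), so the lowest pDC sample stood above every NK sample. Against all myeloid cells, at 74.6 ± 7.20 CPM in the same mice, it was higher in 13 of 13 mice (3.59, SE 0.12, edgeR adjusted p = 6.25e-25). A UMI was found in 134 of 142 pDCs (94.4%, thinned 78.0%) and in 7 of 89 mature DCs (7.87%, thinned 1.65%), which have a similar depth (12852.5 and 13279 UMIs). SLC3A2, its heavy chain partner, was 123 CPM in pDCs and between 22.4 and 130 CPM over all classes.

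In lymphocytes SLC7A5 was 170 ± 43.5 CPM in cycling cells and 143 ± 23.9 CPM in non-cycling ones of the same mice, higher in 12 of 14 (0.19, SE 0.07, adjusted p = 0.0227), though not in the first reaction alone (0.04, adjusted p = 0.830). All lymphoid cells exceeded all myeloid cells in 14 of 14 mice (153 ± 29.5 against 77.5 ± 12.7 CPM, myeloid minus lymphoid -0.62, SE 0.06, adjusted p = 1.44e-08). The fitted log2 fold changes come from libraries scaled by TMM and CPM do not, so that the sizes of both can differ. T cells lay below NK cells by a small step (-0.37, SE 0.12, adjusted p = 0.0195), which lost its call without U6 (-0.30, adjusted p = 0.0650) or M7 (-0.29, adjusted p = 0.0762), with the first reaction alone (-0.09, adjusted p = 0.785) and in cells of at least 5000 UMIs (-0.35, adjusted p = 0.0672). In GLUT1+ macrophages the gene was lower than in other macrophages in 11 of 11 mice (40.6 ± 27.9 against 94.5 ± 27.4 CPM, -1.01, SE 0.25, adjusted p = 0.00598), but not in the second reaction alone (-0.49, adjusted p = 0.315).

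SLC7A8, the sister light chain, was highest in LYVE1+ macrophages (gated on LYVE1 and FOLR2), from 46.7 to 123 CPM with a median of 89.7 (87.1 ± 24.1 CPM, n = 14), and in IL1A/CCL20 macrophages, from 25.5 to 143 CPM (86.7 ± 35.4 CPM, n = 11). Other macrophages held 48.0 ± 13.1 CPM and monocytes 10.9 ± 4.16 CPM, and lymphoid, DC, pDC and tumor classes at most 3.02 CPM. LYVE1+ macrophages exceeded other macrophages in 13 of 14 mice (0.87, SE 0.10, edgeR adjusted p = 9.64e-07) and IL1A/CCL20 macrophages in 9 of 11 (0.87, SE 0.19, adjusted p = 0.00324), the latter not in the first reaction alone (0.50, adjusted p = 0.601). Monocytes were lower than other macrophages in 14 of 14 mice without overlap of the samples (-2.09, SE 0.15, adjusted p = 1.32e-11). Of 1252 LYVE1+ macrophages 625 had a UMI (49.9%, thinned 15.7%), against 17 of 2672 T cells (0.636%, thinned 0.182%), and no B cell of 129, which allows a share of cells with a UMI of up to 2.33%.

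SLC16A10, the aromatic amino acid carrier, had its highest levels in GLUT1+ (4751 ± 1942 CPM, 2191 to 8996, n = 11) and IL1A/CCL20 macrophages (4463 ± 1555 CPM, 1579 to 6623, n = 11), followed by macrophages of more than 1 state (3271 ± 766 CPM, n = 13) and other macrophages (2941 ± 1278 CPM, n = 14). GLUT1+ macrophages exceeded other macrophages in 8 of 11 mice (0.77, SE 0.15, edgeR adjusted p = 0.000847), a call lost with the first reaction alone (0.56, adjusted p = 0.0721). Monocytes were below other macrophages in 14 of 14 mice (1045 ± 287 CPM, -1.37, SE 0.09, adjusted p = 4.05e-12), and so were CXCL10+ macrophages (1601 ± 565 CPM, -0.79, SE 0.13, adjusted p = 4.01e-05). The gap in the order lay below monocytes, which were followed by cDC2s with 376.5 ± 364 CPM (17.5 to 1091).

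Smaller SLC16A10 differences lost their call without single mice. IL1A/CCL20 macrophages exceeded other macrophages (0.56, SE 0.16, adjusted p = 0.0342, 7 of 11 mice), but without M2, U5, U6, M4, M5 or M7 the log2 fold change was 0.44 to 0.58 and the adjusted p 0.0525 to 0.115. That call was also lost with DESeq2 (adjusted p = 0.0644), with the first reaction alone (0.18, adjusted p = 0.813) and in cells of at least 5000 UMIs (adjusted p = 0.0728). LYVE1+ macrophages were lower (-0.33, SE 0.10, adjusted p = 0.0394, 11 of 14 mice), but the call was lost without U1, U2, U4, U6, U7, M1, M5 or M7 (-0.33 to -0.25, adjusted p 0.0596 to 0.104), with DESeq2 (adjusted p = 0.0540) and with either reaction alone (adjusted p = 0.0771 and 0.285). MT1G+ macrophages were lower (-0.91, SE 0.21, adjusted p = 0.0115, 9 of 11 mice), a call lost without U3, U4 or M7 (-0.85 to -0.75, adjusted p 0.0540 to 0.0651), with the second reaction alone (-0.99, adjusted p = 0.0532) and in cells of at least 5000 UMIs (-0.67, adjusted p = 0.278). An SLC16A10 UMI was found in 264 of 275 IL1A/CCL20 macrophages (96.0%, thinned 90.8%) and in 526 of 2672 T cells (19.7%, thinned 7.69%). T cells held 44.4 ± 13.1 CPM (n = 13). The part of transcripts from other cells in the T cell values was not tested.

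AHR, the ligand-activated receptor, was found in every class. It was highest in mast cells (gated on CPA3, TPSAB1 and related genes), with 393 CPM in U1, 245 in U4, 389 in U7, 791 in M2, 502 in M3, 777 in M4 and 541 in M5 (520 ± 204 CPM). Mast cells did not differ past the threshold from all myeloid cells (0.32, SE 0.25, edgeR adjusted p = 0.366, higher in 6 of 7 mice). Monocytes held 426 ± 81.6 CPM, from 309 to 611, and exceeded other macrophages (339 ± 113 CPM) in 11 of 14 mice (0.44, SE 0.10, adjusted p = 0.000531). In IL1A/CCL20 macrophages AHR was lower than in other macrophages in 10 of 11 mice (195 ± 37.5 against 337 ± 84.2 CPM, -0.60, SE 0.14, adjusted p = 0.00562), which was lost in the first reaction alone (-0.42, adjusted p = 0.458).

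Among DCs, AHR was 333 ± 69.4 CPM in cDC2s and lower in mature DCs (152 ± 63.8 CPM, -1.06, SE 0.22, adjusted p = 0.000305, 10 of 10 mice) and cDC1s (139 ± 70.2 CPM, -1.09, SE 0.26, adjusted p = 0.00180, 11 of 11 mice). With the first reaction alone neither was called, at log2 fold changes of -1.0003 (adjusted p = 0.0674) and -1.28 (adjusted p = 0.0585). The lowest levels were in pDCs (36.4 ± 22.3 CPM) and B cells (26.3 ± 10.1 CPM). Against myeloid cells pDCs were lower in 13 of 13 mice (-3.62, SE 0.20, adjusted p = 1.53e-18), and against T cells B cells were lower in 6 of 6 (-2.60, SE 0.32, adjusted p = 1.87e-10). T cells exceeded NK cells in 10 of 13 mice (0.51, SE 0.12, adjusted p = 0.00174), though not in the first reaction alone (0.31, adjusted p = 0.239).

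ARG2, the mitochondrial arginase, was highest in T cells, and among them in FOXP3+ cells. FOXP3 marks regulatory T cells, which restrain other T cells, and here cells with a FOXP3 UMI were called FOXP3+. In FOXP3+ T cells ARG2 ran from 42.5 CPM in U1 to 192 CPM in U4, with a median of 100.3 (100.1 ± 40.0 CPM, n = 12), and in FOXP3- T cells from 4.60 CPM in U3 to 32.1 CPM in U4, with a median of 12.3 (14.2 ± 7.94 CPM, n = 13). No FOXP3- sample reached the lowest FOXP3+ one. ARG2 was higher in FOXP3+ cells in 12 of 12 mice (2.95, SE 0.15, edgeR adjusted p = 1.41e-14). It was detected in 316 of 905 FOXP3+ T cells (34.9%, interval 31.8 to 38.1%) and in 93 of 1767 FOXP3- T cells (5.26%, interval 4.27 to 6.41%), at median depths of 6561 and 5517 UMIs, and in 15.4% and 2.36% after thinning.

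All T cells held 45.0 ± 23.4 CPM of ARG2 and NK cells of the same mice 3.00 ± 2.64 CPM (3.67, SE 0.26, 13 of 13 mice). Cycling lymphoid cells had less than non-cycling ones in 11 of 14 mice (18.2 ± 9.07 against 31.9 ± 21.7 CPM, -0.86, SE 0.15, adjusted p = 2.71e-05). Tumor cells (13.5 ± 12.2 CPM) and myeloid cells did not differ past the threshold (0.24, SE 0.48, adjusted p = 0.691). IL4I1 was lower in FOXP3+ T cells (20.5 ± 7.51 against 29.4 ± 12.8 CPM, -0.49, SE 0.17, adjusted p = 0.0285, 9 of 12 mice) and SLC16A10 higher (51.7 ± 12.6 against 42.3 ± 19.0 CPM, 0.53, SE 0.18, adjusted p = 0.0231, 9 of 12 mice). IL4I1 lost its call without M3, U6 or M4 (-0.47 to -0.38, adjusted p 0.0513 to 0.107), with DESeq2, with either reaction alone, with a stricter hashtag quantile and in cells of at least 5000 UMIs (-0.58 to -0.41, adjusted p 0.0577 to 0.273). SLC16A10 lost it without U6, M4, M5 or M6 (0.41 to 0.49, adjusted p 0.0552 to 0.0861), with DESeq2 (adjusted p = 0.108) and with a stricter hashtag quantile (adjusted p = 0.0587), and turned with the first reaction alone (-0.37, adjusted p = 0.306).

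**Figure D4:**
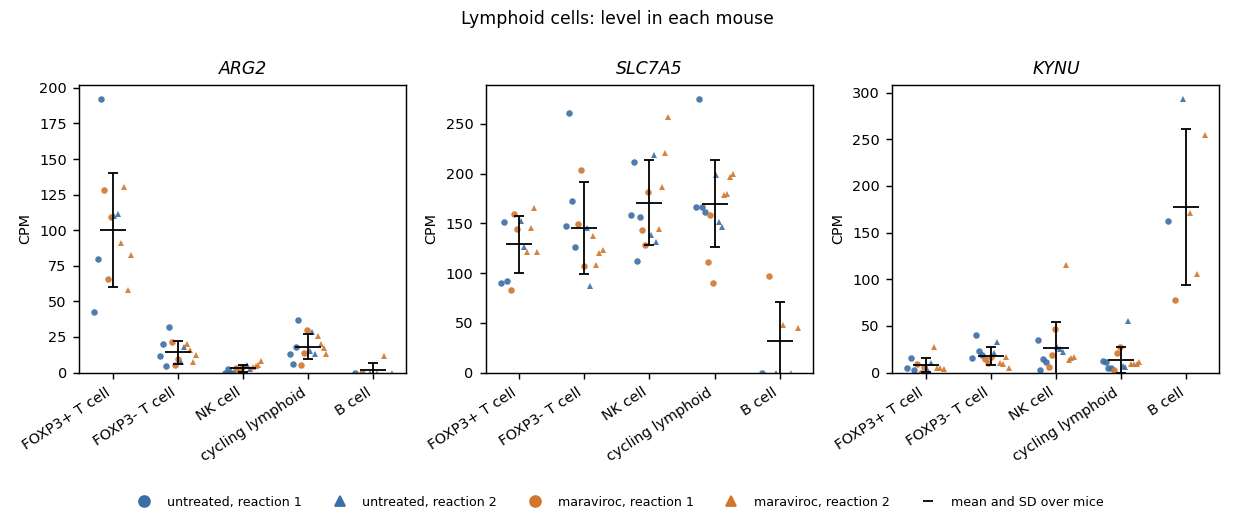
CPM of ARG2, SLC7A5 and KYNU in FOXP3+ T cells, FOXP3- T cells, NK cells, cycling lymphoid cells and B cells, each point 1 mouse, colored by treatment and shaped by reaction, with mean and SD as bars. ARG2 of FOXP3+ T cells (42.5 to 192 CPM) lies above that of FOXP3- T cells (4.60 to 32.1 CPM), and KYNU of B cells (77.7 to 294 CPM) above that of FOXP3+ and FOXP3- T cells.

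Counted by contrast, 89 of 135 tests of a member between classes passed an adjusted p of 0.05 over 18 contrasts. The share of all genes called in the same contrasts ran from 1.83% to 81.1%, so this total is not read as a result about the members. A gene enters such a test only if it passes a filter on low counts, and one that passes through 1 class alone has to differ. That applies to members at no more than a few CPM in the other class, such as IDO1 and KMO among DCs, KMO between B and T cells and ARG2 between T and NK cells. It also applies to IDO1 in CXCL10+ macrophages and monocytes against other macrophages, and to IL4I1 between T and NK cells. The counts and medians below include such members and give no support of their own. Between mature DCs and cDC1s 2 of 5 tested members were called, both higher, beside 53.1% of all genes tested (29.3% higher and 23.9% lower). Between mature DCs and cDC2s 6 of 6 were called (2 higher and 4 lower, beside 54.3% of all genes, 25.3% higher and 28.9% lower), and between cDC1s and cDC2s 5 of 7 (1 higher and 4 lower, beside 45.5%, 26.4% lower). The median log2 fold change of the tested members was 0.92, -1.10 and -1.34 in these 3 contrasts, against 0.03, -0.11 and -0.12 over all genes.

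The contrasts of macrophage states and of monocytes share the other macrophages as reference, so their values are not independent of each other. In CXCL10+ macrophages 4 of 8 members were called (2 higher and 2 lower), beside 14.4% of all genes (7.71% higher and 6.7% lower). In GLUT1+ macrophages it was 4 of 7 (3 higher and 1 lower), beside 23.6% (14.2% and 9.32%). In MT1G+ macrophages it was 2 of 7, both lower, beside 1.83% (0.351% and 1.48%). In IL1A/CCL20 macrophages it was 4 of 7 (3 higher and 1 lower), beside 7.14% (4.7% and 2.44%). In LYVE1+ macrophages it was 3 of 9 (1 higher and 2 lower), beside 10.7% (4.97% and 5.73%). In monocytes it was 6 of 9 (4 higher and 2 lower), beside 41.9% (21.4% and 20.5%). Between cycling and non-cycling macrophages it was 5 of 9, all lower, beside 41.8% (22.5% lower). The member medians were -0.33, 0.08, -0.59, 0.54, -0.20, 0.20 and -0.47 in this order, and those of all genes between -0.07 and 0.00. The MT1G+ count was 4 with the first reaction alone and 0 with the second alone.

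Myeloid against lymphoid cells called 9 of 9 members, 7 of them higher in myeloid cells, beside 81.1% of all genes (40.4% higher and 40.7% lower). The lymphoid group leaves out B cells, which held 115 ± 33.3 CPM of KMO and 177 ± 83.4 CPM of KYNU. The log2 fold changes were 6.32 for KMO (109 ± 32.2 against 1.77 ± 1.002 CPM), 6.29 for KYNU (947 ± 284 against 15.9 ± 10.2 CPM), 5.80 for SLC16A10, 5.69 for IDO1, 5.45 for SLC7A8, 3.08 for IL4I1 and 1.61 for AHR, while SLC7A5 and ARG2 were lower (-0.62 and -1.22). The member median was 5.45 against -0.02 over all genes. In lymphoid cells IDO1 was 0.773, SLC7A8 1.13 and KMO 1.77 CPM, so these can enter the test through myeloid cells alone. Their fold changes and this median give no support of their own. Tumor cells against myeloid cells called 8 of 9, all lower, beside 54.9% (19.8% higher and 35.0% lower), with a median of -4.24 against -0.32. IL4I1, IDO1 and SLC7A8 (1.05, 1.04 and 3.02 CPM in tumor cells) can likewise enter this test through myeloid cells alone. AHR in tumor cells was 283 ± 141 CPM against 326 ± 59.3 CPM and lower in 7 of 11 mice, with a fitted value of -0.83 (SE 0.20, edgeR adjusted p = 0.000452) once the libraries were scaled. Myeloid lineage markers summed to 3478 CPM and macrophage markers to 161 CPM in tumor cells, and their part in the tumor cell values was not tested.

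Against myeloid cells, pDCs had 7 of 9 members called, 1 higher (54.8% of all genes, 18.3% higher and 36.5% lower, median -2.32 against -0.32), and mast cells 6 of 9, all lower (27.4%, 8.67% higher and 18.7% lower, median -1.56 against -0.30). T against NK cells gave 5 of 6 (3 higher, beside 33.2%, 16.5% higher), B against T cells 6 of 7 (2 higher, beside 30.0%), FOXP3+ against FOXP3- T cells 3 of 6 (2 higher, beside 33.7%, 17.3% higher), and cycling against non-cycling lymphoid cells 4 of 6 (1 higher, beside 49.1%, 28.2% lower). The medians were 0.07, -1.22, 0.14 and -0.58, against 0.00, -0.14, 0.00 and -0.05 over all genes. KYNU was lower in T than NK cells (-1.14, SE 0.29, adjusted p = 0.00229), a call lost without M4 (-0.75, adjusted p = 0.0569), with DESeq2 (-0.85, adjusted p = 0.0521) and with the first reaction alone (-0.70, adjusted p = 0.371). SLC16A10 was lower in B than T cells (-1.22, SE 0.48, adjusted p = 0.0445), a call lost without U1, M3, M4, M5 or M7 (-1.22 to -0.94, adjusted p 0.0770 to 0.208). It was also lost with RLE size factors, DESeq2, the second reaction alone, either stricter cell limit, stricter gates, a stricter hashtag quantile and cells of at least 5000 UMIs (-1.18 to -0.98, adjusted p 0.0554 to 0.361). In mast cells IDO1 lost its call without M4 (-2.14 in place of -2.80, adjusted p = 0.0776), with DESeq2 (adjusted p = 0.165) and with the first reaction alone (adjusted p = 0.453). SLC7A8 lost its call there without M5 or U7 (-1.26 and -1.20 in place of -1.56, adjusted p = 0.0899 and 0.0961), with DESeq2 (adjusted p = 0.0798) and with the first reaction alone (adjusted p = 0.700).

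Other genes of amino acid metabolism were taken from 5 lists (tryptophan and kynurenine enzymes, the AHR axis, amino acid transport, arginine and polyamine enzymes, other amino acid enzymes), 65 genes in all. Between mature DCs and cDC1s, 7 of 13 tested were higher and 0 lower, beside 53.1% of all genes called, with a median of 0.94 against 0.03 over all genes. They included IDO2, the relative of IDO1, at 170 CPM in mature DCs, 36.7 CPM in cDC1s and at most 8.02 CPM elsewhere (fitted log2 fold change 2.51, SE 0.44, and against cDC2s 5.16, SE 0.48). GLUL, the glutamine synthetase, was also higher in mature DCs (97.5 CPM) than in cDC1s (32.1 CPM, 2.16, SE 0.64). At such levels in cDC1s, and for IDO2 also in cDC2s, both genes can enter these tests through mature DCs alone. The differences thus give no support of their own. In cDC2s GLUL was 295 CPM, above its level in mature DCs. Of the lists, 6 of 21 were higher and 8 lower between mature DCs and cDC2s (beside 54.3%, median -0.22 against -0.11), and 1 of 13 higher and 7 lower between cDC1s and cDC2s (beside 45.5%, median -1.03 against -0.12).

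In CXCL10+ macrophages 3 of 37 listed genes were higher and 5 lower, beside 14.4% of all genes called, among them WARS, the tryptophan tRNA ligase known to be induced by interferon (0.67, SE 0.20, edgeR adjusted p = 0.0216), and the cystine carrier SLC7A11, which was lower (-2.13, SE 0.52, adjusted p = 0.00508). SLC7A11 was 3.34 CPM in CXCL10+ and 12.4 CPM in other macrophages. It can enter the test through other macrophages alone, so that call gives no support of its own. WARS was also higher in monocytes than in other macrophages (1.70, SE 0.11, adjusted p = 9.97e-13), and lower in IL1A/CCL20 (-1.02) and LYVE1+ macrophages (-0.90). Its level was 467 CPM in monocytes, 400 CPM in cDC2s and 223 CPM in CXCL10+ macrophages. In GLUT1+ macrophages 7 of 25 were higher and 4 lower, beside 23.6%, with WARS lower (-1.31, SE 0.29, adjusted p = 0.00237) and BCAT1, a branched chain aminotransferase, higher (0.97, SE 0.17, adjusted p = 0.000287). In IL1A/CCL20 macrophages 5 of 35 were higher and 1 lower, beside 7.14%, and CYP1B1, a known target of AHR, rose by 2.51 (SE 0.44, adjusted p = 0.000516), while AHR itself was lower there. CYP1B1 was also higher in LYVE1+ macrophages (2.02, SE 0.43, adjusted p = 0.00211), in which 2 of 40 were higher and 6 lower, beside 10.7%, and in monocytes (2.32, SE 0.31, adjusted p = 7.08e-07), in which 11 of 43 were higher and 7 lower, beside 41.9%. Other macrophages held 4.36 CPM of CYP1B1, so it can enter these tests through the other class alone. AHRR, also of the AHR axis, was lower in LYVE1+ macrophages (-0.83, SE 0.22, adjusted p = 0.0149). Of 7 AHR axis genes tested there, 1 was higher and 2 lower. The list gave 2 higher and 0 lower of 7 in IL1A/CCL20 macrophages, and 3 higher and 0 lower of 8 in monocytes. In MT1G+ macrophages 0 of 30 were higher and 1 lower, beside 1.83%, which was NAMPT, the enzyme that makes nicotinamide mononucleotide (-0.82, SE 0.17, adjusted p = 0.00498).

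Between lineages, 26 of 52 listed genes were higher and 17 lower in myeloid than in lymphoid cells, beside 81.1% of all genes called, with SLC15A3, CYP1B1, SLC7A7 and SLC43A2 at the top (5.91, 5.68, 5.60 and 5.54). In pDCs 7 of 48 were higher and 27 lower than in myeloid cells, beside 54.8%, and the neutral amino acid carrier SLC38A1 was higher beside SLC7A5 (4.51, SE 0.24, edgeR adjusted p = 8.48e-19). SLC38A1 was 202 CPM in pDCs, at most 13.7 CPM in monocytes and macrophages, and 17.2 to 55.1 CPM in conventional DCs. It can enter this test through pDCs alone, so the call gives no support of its own. In FOXP3+ T cells 5 of 34 were higher and 9 lower, beside 33.7%, with BCAT1 lower (-2.86, SE 0.19, adjusted p = 1.65e-12) and SAT1, a polyamine acetyltransferase, higher (1.24, SE 0.08, adjusted p = 3.21e-13). SAT1 was the only 1 of 8 tested genes of the arginine and polyamine list that was higher there. Another 4 of that list were lower, and its median was -0.44 against -0.003 over all genes. TDO2, ARG1, NOS2, CYP1A1, ASS1 and ASNS were at most 2.49 CPM in every class.

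The genes most alike in level over the 19 classes were named by Pearson's r of log2(CPM + 1) among 13200 genes, as a description over classes that share the same libraries. IDO1 was followed by AC007991.3 (r = 0.910), IDO2 (0.887) and ZBTB46-AS1 (0.884), and IL4I1 by CD80 (0.942), PLEK (0.903) and M6PR (0.900). KYNU was followed by HLX (0.974) and RIPK2 (0.954), and KMO by CLMN (0.945), CHST15 (0.917) and AC066613.2 (0.899). Among the transporters, SLC7A5 was closest to INPP4A (0.946), TMEM184C (0.934) and Z93241.1 (0.909), and SLC7A8 to CCL13 (0.984), ITGA9 (0.982) and AC110995.1 (0.980). SLC16A10 was closest to COLEC12 (0.982), SH3PXD2B (0.981) and CD14 (0.980). AHR was closest to FHL3 (0.954), ANXA1 (0.930) and LGALS3 (0.928), and ARG2 to ZC2HC1A (0.856), NDFIP1 (0.816) and NTNG2 (0.802).

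Maraviroc was compared with no treatment in each of 14 cell groups, with the reaction as a covariate. None of 89 tests of a member was called by edgeR, 5 of them with an unadjusted p under 0.05, beside 0.0% of all genes in each group (122 to 568 genes with an unadjusted p under 0.05). DESeq2 also called 0 members. The lowest p was that of SLC16A10 in mast cells (log2 fold change -2.13, SE 0.56, edgeR adjusted p = 0.559), where U1 had 1258, U4 511 and U7 35.4 CPM against 83.2, 202.5, 0 and 27.5 CPM in M2, M3, M4 and M5, so that the groups overlapped through U7. AHR in mast cells was 343 ± 84.3 CPM in 3 untreated and 652 ± 152 CPM in 4 maraviroc mice, without overlap (0.86, SE 0.33, edgeR adjusted p = 0.700).

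The other low p values were in larger groups. KYNU in T cells was 21.0 ± 10.2 CPM in 6 untreated and 10.4 ± 4.75 CPM in 7 maraviroc mice (-0.75, SE 0.30, unadjusted p = 0.0231 in the edgeR fit), and SLC16A10 in NK cells was 35.1 ± 21.5 and 88.3 ± 130 CPM, the latter with 373 CPM in M4. IDO1 in CXCL10+ macrophages was 15.6 ± 19.6 CPM in untreated mice (0 to 44.7, median 9.77) and 49.4 ± 48.8 CPM in maraviroc mice (11.8 to 129, median 30.1), which overlapped widely (1.33, SE 0.66, unadjusted p = 0.0565 in the edgeR fit). None of the 65 listed genes was called in any group.

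Whether the maraviroc difference was alike in both reactions was tested by an interaction term, in 96 tests of a member. It was called for 1, KMO in other macrophages, beside 0.0395% of all genes there. In the edgeR fits 22 of the 96 had an unadjusted p under 0.05. The share of all genes at that p is not given here, so this count says nothing about the members as a set. KMO was 179, 146, 169 and 95.4 CPM in U1 to U4 against 61.4, 56.0 and 65.8 CPM in M1 to M3, and 31.8, 33.2 and 28.6 CPM in U5 to U7 against 64.1, 114, 220 and 96.6 CPM in M4 to M7. Every untreated sample of the first reaction thus lay above its maraviroc samples and every one of the second below them. The difference of the 2 effects was 3.19 on the log2 scale (SE 0.44, edgeR adjusted p = 0.00315), and it was called without any 1 of the 14 mice (2.95 to 3.40) and in cells of at least 5000 UMIs (3.41, adjusted p = 0.0277), but not with stricter gates (1.80, adjusted p = 0.485). Median depth of these cells was 2083 UMIs in the first and 10518 in the second reaction.

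In monocytes KYNU and KMO were arranged in a similar way without a call. KYNU was 1167 to 1570 CPM in untreated and 731 to 959 CPM in maraviroc mice of the first reaction, and 1138 to 1353 against 1363 to 1926 CPM in the second (interaction 1.06, SE 0.19, edgeR adjusted p = 0.0528). KMO gave 1.23 (SE 0.32, adjusted p = 0.248). The 2 reactions hold different mice, so reaction, depth and mouse cannot be told apart in these differences.

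**Figure D5:**
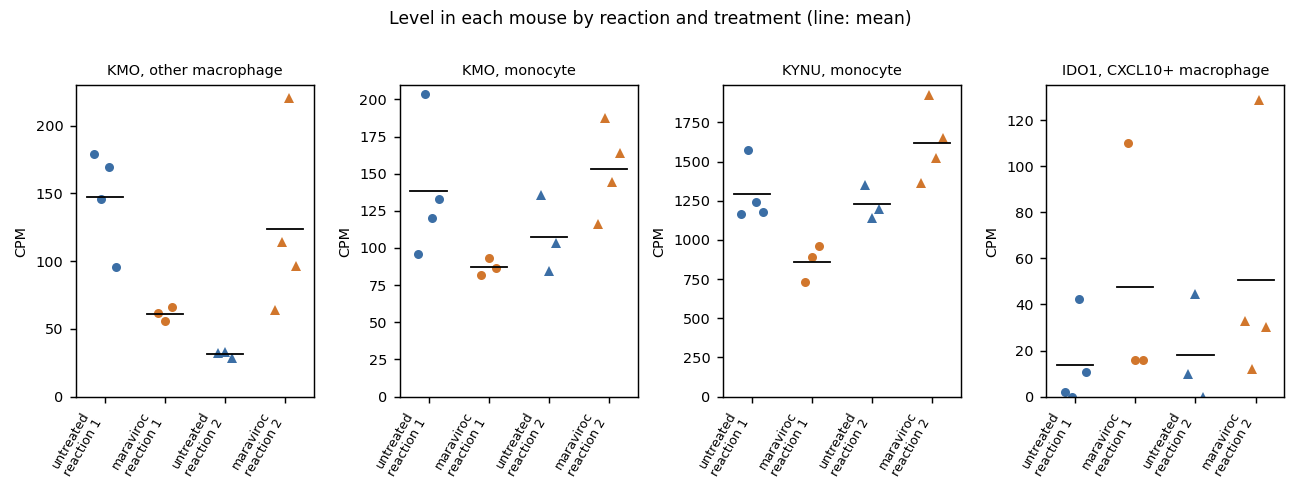
CPM of KMO in other macrophages, KMO in monocytes, KYNU in monocytes and IDO1 in CXCL10+ macrophages by reaction and treatment, each point 1 mouse and each line a mean. KMO in other macrophages is higher in the untreated mice of the first reaction (95.4 to 179 CPM) and lower in those of the second (28.6 to 33.2 CPM) than in the maraviroc mice of the same reaction.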

How the data were processed

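Human CD45+ tumor cells of 14 mice were counted in 2 droplet reactions with a 3′ UMI chemistry. The authors deposited raw UMI counts per gene and barcode and counts per hashtag, and the submitters' processing notes name Cell Ranger 9.0.1, Seurat 5.1.0 and GRCh38. Hashtags were called here with HTODemux (Seurat 5.3.0, quantile 0.99), which also removed barcodes with more than 1 hashtag, so that doublets within a mouse stayed, and no further doublet caller was run. Barcodes with over 600 and up to 6000 genes and a mitochondrial share under the limit of the study's methods were kept and gated by UMIs of marker genes.

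Counts were summed per mouse and class, for mice with at least 10 cells, or 3 where fewer than 6 mice reached 10 (mature DC, cDC1, cDC2, pDC, MT1G+ macrophage and tumor cell contrasts). Classes were compared within mice, and treatments with the reaction as covariate, by edgeR 4.0.16 (quasi-likelihood test, TMM, low-count filter, Benjamini-Hochberg over all genes, threshold 0.05), with DESeq2 1.42.0 as an alternative (R 4.3.3). Levels and shares used Python 3.11.15, numpy 2.4.6, pandas 2.3.3 and scipy 1.17.1. Fits were tested on simulated data. Replicates are separate mice. Exact binomial intervals (95%) and limits from a count of 0 (3 counts) cover counting error only. Thinned shares are those expected at 2000 UMIs per cell and leave out cells with fewer UMIs, so they cover fewer cells than the raw shares in most classes.

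The members, lists and tests were chosen with earlier results of these data known. The gate thresholds, the minimum of 3 cells, the 4 contrasts of pDCs, B cells, mast cells and FOXP3+ T cells, the interaction alternatives and the limit of 5000 UMIs were chosen after seeing the data. Pathway genes were eligible to be named where their adjusted p passed and they were among the 4 largest log2 fold changes of the lists in a contrast. IDO2, SLC3A2 and the genes at most 2.49 CPM in level were named for their levels after these were seen. Alike genes are the 3 with the highest r among genes that reach 10 CPM in a class. Human sequences were not used here. Some genes that these rules would name are not reported here.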

Additional observations from a re-analysis of the deposited data

Results flagged for a closer look

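Within treatment groups of at least 4 mice, 50 sets of levels were checked for 1 mouse far from the others, and 8 had one, where chance gives about 1 in 20. In monocytes IDO1 was 43.6 CPM in U2 against 3.05 to 20.3 CPM in the other untreated mice, and 64.2 CPM in M4 against 1.16 to 24.4 CPM in the other maraviroc mice. KMO in monocytes was 203 CPM in U2 (others 84.3 to 136), AHR 526 CPM in U7 (others 343 to 412) and SLC16A10 508 CPM in M6 (others 1063 to 1411). KMO was 220 CPM in other macrophages of M6 (others 56.0 to 114) and 384 CPM in IL1A/CCL20 macrophages of M5 (others 94.7 to 146). IL4I1 in pDCs was 1153 CPM in U1 (others 117 to 505).

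The maraviroc effect on KMO in other macrophages differed between the reactions by 3.19 on the log2 scale, as described above.

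The 5838 single-hashtag cells in no class also held the members. Over these cells IL4I1 was 71.6 CPM, IDO1 7.20 CPM, KYNU 659 CPM, KMO 81.1 CPM and ARG2 12.3 CPM. The transporters SLC7A8, SLC7A5 and SLC16A10 were at 19.2, 123 and 1225 CPM, and AHR at 235 CPM.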

How the results depend on the processing

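Of 89 member calls between classes, 88 kept their sign under every alternative run and 56 also kept their call. The exception in sign was SLC16A10 in FOXP3+ against FOXP3- T cells, -0.37 with the first reaction alone. The total was 57 with the first reaction alone (17 contrasts), 78 to 101 under the other alternatives and 85 to 94 without 1 mouse. With the first reaction alone the count was 1 between mature DCs and cDC1s, 3 in each contrast with cDC2s, 4 in MT1G+ and 1 in IL1A/CCL20 macrophages, 1 between T and NK cells, 2 in cycling lymphoid cells, 2 in mast cells and 1 in FOXP3+ T cells. With the second alone it was 2 in GLUT1+ and 0 in MT1G+ macrophages. In cells of at least 5000 UMIs it was 0 in MT1G+ macrophages, and with a stricter hashtag quantile it was 1 in FOXP3+ T cells. In LYVE1+ macrophages it was 5 without the low-count filter, with RLE size factors, with a higher minimum of genes per cell and with stricter gates. Without 1 mouse it fell to 1 in MT1G+ macrophages (U3, U4 or M7) and FOXP3+ T cells (U6) and rose to 5 in LYVE1+ macrophages (U5 or M6).

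Under treatment the count was 0 except without the filter, where it was 3 (1 each in CXCL10+ macrophages, GLUT1+ macrophages and NK cells). Without the filter 464 calls were made over all genes in the 14 groups, at most 65 in 1 group. The 3 calls are thus not read as a result about the members. Of the 89 effects, 60 changed sign somewhere. The interaction gave 2 calls in myeloid cells without the filter, with DESeq2 and without U5. In monocytes it gave 3 without the filter, 2 with DESeq2 and 1 with a higher minimum of genes per cell, with stricter gates, in cells of at least 5000 UMIs and without U4, U5, M4 or M6. In other macrophages it gave 3 without the filter and 0 with stricter gates, and in LYVE1+ macrophages 2 without the filter. The calls over all genes under these alternatives are not given here, so these interaction counts say nothing about the members as a set. The causes were not tested. Levels moved by less than 1 SD over mice in 155 to 171 of 171 member and class pairs. No paired analysis was possible because the replicate numbers of untreated and maraviroc mice name different animals.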
